A study of Homo sapiens with 6 samples.

Results

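The comparison described here set NB4 cells carrying sgRNA sg1 against ARID1A beside NB4 cells carrying a control sgRNA against LacZ, a bacterial gene with no counterpart in the human genome. NB4 is a human acute promyelocytic leukemia line. It was chosen by sample title, which gave 4 of the 6 RNA-sequencing samples of the series: LacZ replicates 1 and 2 (genotype WT in the labels) and sg1 replicates 1 and 2 (ARID1A-deficient), named E1 and E2 in the titles. The remaining 2 samples carried a different sgRNA against ARID1A, sg5, and were used only to estimate the spread between replicates and where stated. Cells of every group, the controls included, expressed Cas9, carried a doxycycline-inducible sgRNA vector, and were exposed to doxycycline at 1 µg/ml for 7 days. According to the study's methods, they were sorted for the fluorescent markers of both vectors, with no cloning step described, and were kept without doxycycline before RNA isolation. The labels do not say whether the replicates were separate cultures, so p-values measure only the spread between these samples, which may be technical.

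ARID1A is a DNA-binding subunit of the BAF form of the SWI/SNF complex, which moves and evicts nucleosomes with energy from ATP and is best known for keeping enhancers accessible to lineage transcription factors. Promyelocytes are granulocyte precursors that make the primary granule proteins, and they sit close to the branch points for eosinophils, basophils and monocytes. A pair of stress programs recurs in the results and is introduced here. Heat shock factor HSF1 drives the cytosolic chaperones, which fold and refold proteins, whereas ATF4 drives amino acid synthesis, amino acid transport and tRNA charging when amino acids are short or the endoplasmic reticulum is stressed.

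Estimated counts per transcript were summed to genes and expressed as CPM, counts scaled to the library total after TMM adjustment, and differences between libraries are given on the log2 CPM scale. Total counts were between 46131178 and 54490092 in these 4 libraries, so depth differed little. The labelled cell type was checked on its markers: MPO, the granule peroxidase of promyelocytes, was at 14800 and 16800 CPM in LacZ and at 15400 and 14500 CPM in sg1, and 9 of 10 promyelocyte markers were measured. The exception was ELANE, neutrophil elastase, with 1 to 9 counts per library. Of the 9, 2 were lower (2.3% of all genes tested) and 0 higher (1.86%) at an unadjusted p under 0.05 by edgeR's quasi-likelihood test. These were CTSG (92.9 and 90.7 CPM in LacZ, 59.2 and 70.6 CPM in sg1) and AZU1 (217 and 215 CPM in LacZ, 177 and 180 CPM in sg1). In 4 of the 9 both sg1 libraries were below both LacZ libraries (17.4%), and in 0 above both (16.7%). Their median log2 fold change was -0.11. One library stood apart. Among 13133 genes whose mean over the 6 libraries reached 50 counts, sg1 replicate 1 lay at least 1.5-fold above the other 3 libraries in 83 genes and 1.5-fold below them in 372, whereas the corresponding numbers were 36 and 56 for sg1 replicate 2, 54 and 41 for LacZ replicate 1, and 27 and 45 for LacZ replicate 2. The SD over genes of the difference between the replicates was 0.416 in sg1 and 0.309 in LacZ. Results below are therefore given for each sg1 library.

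The targeted gene was examined first. ARID1A RNA was at 155 and 191 CPM in LacZ and at 211 and 191 CPM in sg1, which gave a log2 fold change of 0.22 (SE 0.14) and an adjusted p of 0.993 by edgeR's quasi-likelihood test. The sg1 libraries were not below the LacZ libraries. Insertions and deletions made by Cas9 can remove a protein without lowering its RNA, and the protein was not measured in these files, so RNA level does not check the labels here. Of 30 measured SWI/SNF subunits, 0 had an unadjusted p under 0.05 in edgeR (4.15% of all genes tested) and 0 passed an FDR of 0.1, and their median log2 fold change was 0.05. ARID1B, the paralog that takes the place of ARID1A in the complex, was at 68 and 72.6 CPM in LacZ and at 87.6 and 78.2 CPM in sg1, with a log2 fold change of 0.24 (SE 0.11) and an adjusted p of 0.993 by edgeR. SMARCD3 was at 37.6 and 34.4 CPM in LacZ and at 28.9 and 31.7 CPM in sg1, a log2 fold change of -0.25 (SE 0.15).

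Of 18514 genes tested, 7 passed an FDR of 0.1 (0.0378%), of which 2 rose (0.0108%) and 5 fell (0.027%). RIPOR2, an inhibitor of the small GTPase RhoA (chromosome 6, 24804281 to 25042170, minus strand), was at 2.94 and 2.56 CPM in LacZ and at 21.2 and 17.8 CPM in sg1. It rose 7.09-fold, a log2 fold change of 2.83 (SE 0.18) with an adjusted p of 0.00191. CUX2, a homeobox transcription factor (chromosome 12, 111034024 to 111350554, plus strand), was at 1.69 and 1.31 CPM in LacZ and at 6.74 and 6.12 CPM in sg1, a log2 fold change of 2.10 (SE 0.23) with an adjusted p of 0.0411. For both genes the sg1 libraries lay close together and far above LacZ.

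The genes that fell included markers of megakaryocytes, eosinophils and basophils. ITGA2B, the integrin chain CD41 of megakaryocytes and platelets (chromosome 17, 44372180 to 44389505, minus strand), was at 16.3 and 12.3 CPM in LacZ and at 3.42 and 3.22 CPM in sg1, with a log2 fold change of -2.11 (SE 0.22) and an adjusted p of 0.0322. PRG2, the eosinophil granule major basic protein (chromosome 11, 57386794 to 57390657, minus strand), was at 62.9 and 71.8 CPM in LacZ and at 26.1 and 20.5 CPM in sg1, with a log2 fold change of -1.53 (SE 0.15) and an adjusted p of 0.0322. PRG2 overlaps AP000781.2 on its strand, and reads of the whole locus differed from LacZ by -1.21 and -1.35 in the sg1 libraries. HDC, histidine decarboxylase, which makes histamine in basophils and mast cells (chromosome 15, 50241947 to 50266026, minus strand), was at 20.7 and 20.3 CPM in LacZ and at 8.74 and 8.89 CPM in sg1, with a log2 fold change of -1.22 (SE 0.15) and an adjusted p of 0.0884. HSPG2, the basement membrane proteoglycan perlecan (chromosome 1, 21822245 to 21937297, minus strand), was at 85.1 and 77.9 CPM in LacZ and at 45.7 and 41.2 CPM in sg1, with a log2 fold change of -0.91 (SE 0.12) and an adjusted p of 0.0884. In all 4 genes both sg1 libraries were below both LacZ libraries.

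The remaining call was SPECC1L-ADORA2A, a read-through of neighbouring genes on chromosome 22 (24270898 to 24442356, plus strand), with 109 and 65 counts in LacZ and 0 and 1 counts in sg1 (adjusted p = 0.0322). It shares reads with SPECC1L and ADORA2A, and counts of the whole locus differed from LacZ by 0.25 and 0.01 on the log2 scale, so this call is uncertain. Another 4 genes missed the threshold by little, each at an adjusted p of 0.104 by edgeR. The antiprotease SLPI was at 17.9 and 16.9 CPM in LacZ and at 59.9 and 37.8 CPM in sg1. The activating myeloid receptor CD300LB was at 7.12 and 7.62 CPM in LacZ and at 19 and 15.8 CPM in sg1. The collagen COL27A1 was at 59.3 and 61.8 CPM in LacZ and at 27.2 and 33.1 CPM in sg1, and the sterol transporter GRAMD1B at 39.8 and 37.9 CPM in LacZ and at 20.9 and 21.3 CPM in sg1. Leaving out 1 library changed the number of calls: 3 genes passed without sg1 replicate 1, 17 without sg1 replicate 2, 1 without LacZ replicate 1 and 2 without LacZ replicate 2. RIPOR2 passed in all 4 of these fits and PRG2 only in the fits that left out an sg1 library. With sg1 replicate 1 as the only sg1 library, the 17 included S100A9, SLPI and LYZ, the gene for lysozyme, which was at 131 and 128 CPM in LacZ and at 368 and 182 CPM in sg1.

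**Figure D1:**
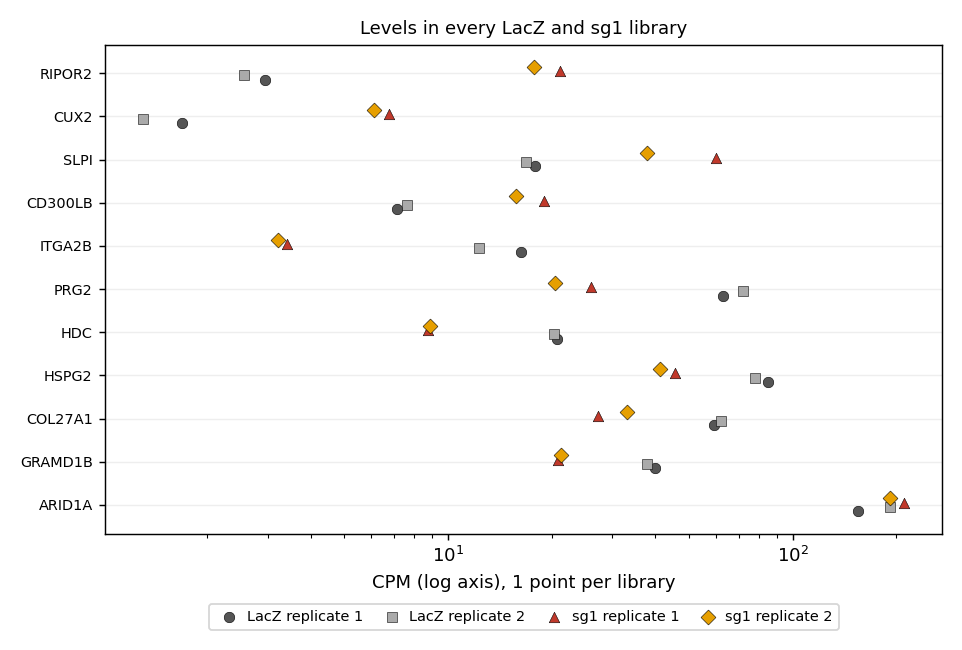
CPM (log axis) of ARID1A, the called genes other than SPECC1L-ADORA2A, and 4 genes at an adjusted p of 0.104, with 1 point for each LacZ and sg1 library. In every gene but ARID1A both sg1 libraries lie on the same side of both LacZ libraries.

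To describe changes beyond these calls, genes averaging 50 counts or more were sorted by where the sg1 libraries lay. A gene moved in both when both sg1 libraries were at least 1.5-fold beyond the nearest LacZ library on the same side. It moved in replicate 1 only, or in replicate 2 only, when that sg1 library was at least 1.5-fold beyond the nearest of the other 3 while the other sg1 library was no more than 0.2 (log2) outside the LacZ range. These classes rest on the values themselves and carry no test. Of 13133 genes, 59 were higher in both (0.449%) and 71 were lower in both (0.541%). In replicate 1 only, 58 genes were higher (0.442%) and 295 were lower (2.25%). In replicate 2 only, 23 were higher (0.175%) and 37 were lower (0.282%). At the edge of the rule, IFI30 (distance 0.587 between the nearest sg1 and LacZ libraries) was the last gene counted as higher in both and MLLT3 (0.584) the first left out. PARP6 (0.585) and RINL (0.584) were the corresponding genes for lower in replicate 1 only.

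**Figure D2:**
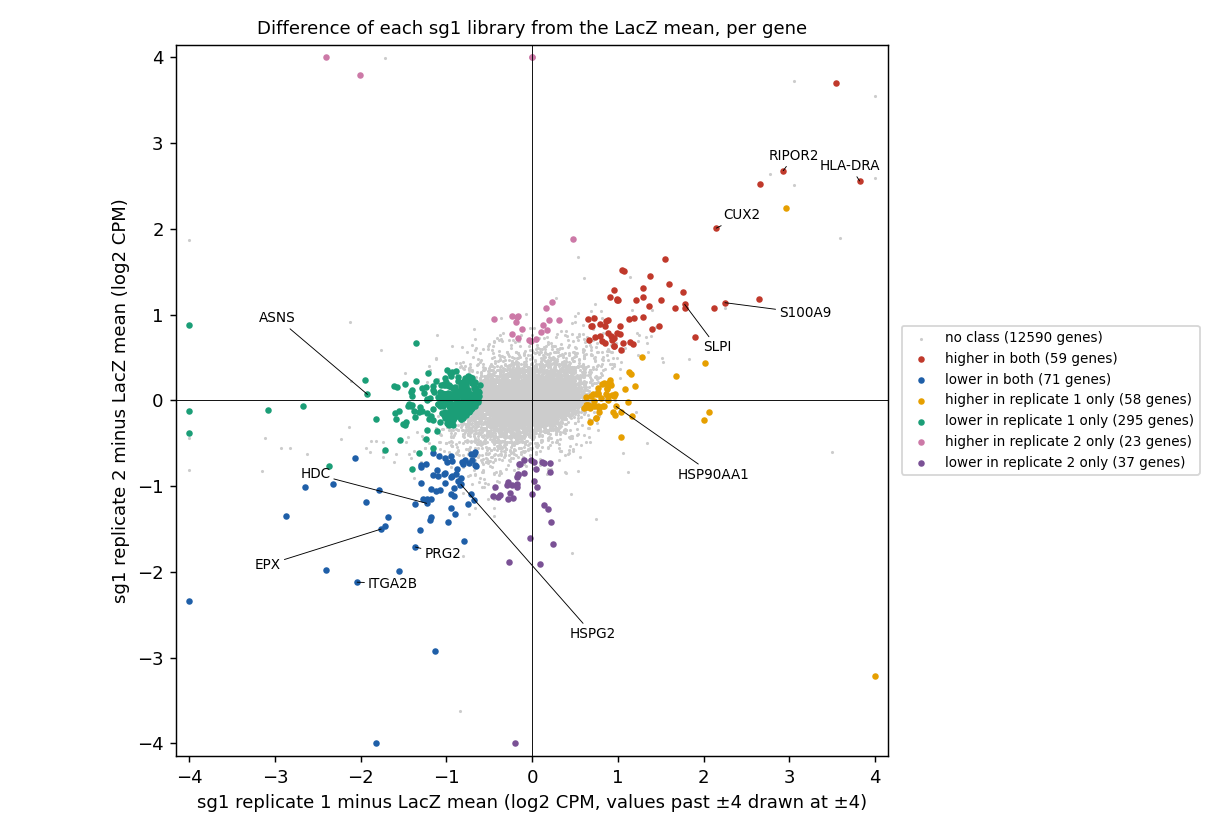
Difference of sg1 replicate 1 (horizontal) and of sg1 replicate 2 (vertical) from the LacZ mean in log2 CPM, with 1 point per gene for 13133 genes averaging 50 counts or more, coloured by class. Both axes use the same LacZ libraries. The 295 genes lower in replicate 1 only form the broad arm to the left, while RIPOR2 and ITGA2B lie near the diagonal. Points of a single-replicate class far from an axis are genes whose LacZ libraries differ widely.

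The genes higher in both sg1 libraries had a median difference from LacZ of 1.06 in replicate 1 and 0.96 in replicate 2. They included genes of antigen presentation by MHC class II, which displays peptides to CD4 T cells. HLA-DRA, the gene of the HLA-DR alpha chain, was at 0.304 and 0.0595 CPM in LacZ and at 2.59 and 1.06 CPM in sg1, and was low in all libraries. CD74, the invariant chain that guides class II molecules through the cell, was at 19.2 and 13.7 CPM in LacZ and at 45.1 and 29.5 CPM in sg1. CIITA, the transactivator of class II genes, was at 3.15 and 2.97 CPM in LacZ and at 5.54 and 4.88 CPM in sg1. None of these 3 passed the test by edgeR (adjusted p of 0.41, 0.993 and 0.706), although in each both sg1 libraries exceeded both LacZ libraries. These were also the 3 of 14 measured class II list members that were higher at an unadjusted p under 0.05 (1.86% of all genes tested). The number lower at that level was 0 in edgeR, and the median log2 fold change of the list was 0.24. Replicate 1 was above both LacZ libraries in 6 members (37% of all genes tested) and below both in 6 (41.6%), so the list did not move one way there. For replicate 2 these numbers were 8 (35.1%) and 2 (31.6%). The summed TPM of the list was 275 and 262 in LacZ and 274 and 285 in sg1.

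The genes higher in both also included S100A9 and CCR2. S100A9, a calcium-binding protein of neutrophils and monocytes, was at 8.54 and 8.39 CPM in LacZ and at 40.3 and 18.7 CPM in sg1. Its partner S100A8, which did not meet the rule for the class, was at 2.03 and 0.952 CPM in LacZ and at 6.76 and 2.99 CPM in sg1. The chemokine receptor CCR2 was at 3.44 and 2.94 CPM in LacZ and at 14 and 6.75 CPM in sg1. In these genes, as in SLPI, LYZ and CD74, sg1 replicate 1 was the higher of the sg1 libraries. None of S100A9, S100A8 and CCR2 passed the test by edgeR (adjusted p of 0.302, 0.652 and 0.588). The list of secondary and tertiary granule genes, which become active late in neutrophil maturation, did not move one way. Of its 23 measured members, 5 were higher (1.86% of all genes tested) and 4 lower (2.3%) at an unadjusted p under 0.05 in edgeR. The median log2 fold change was -0.32. The median difference from LacZ of this list was -0.07 in replicate 1 and -0.31 in replicate 2. CHI3L1 was at 103 and 89.9 CPM in LacZ and at 169 and 143 CPM in sg1, whereas the gelatinase MMP9 was at 454 and 360 CPM in LacZ and at 283 and 183 CPM in sg1. Defining genes of this list such as LTF, LCN2 and CAMP were too low to be tested.

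Genes higher in both sg1 libraries also included secreted ligands and regulators outside the myeloid programs. The morphogen BMP2 was at 1.27 and 0.773 CPM in LacZ and at 3.52 and 2.14 CPM in sg1. The Wnt ligand WNT7B was at 3.93 and 3.69 CPM in LacZ and at 14.3 and 6.39 CPM in sg1. The receptor tyrosine kinase EPHB3 was at 0.589 and 0.575 CPM in LacZ and at 1.78 and 1.91 CPM in sg1. DNMT3B, a de novo DNA methyltransferase, was the most abundant of the genes named here from this class, at 54.9 and 52.6 CPM in LacZ and at 85.2 and 88.1 CPM in sg1, with a log2 fold change of 0.69 (SE 0.12). AFF3, a nuclear protein of the AFF family tied to transcription elongation, was at 4.75 and 4.54 CPM in LacZ and at 9.29 and 10.5 CPM in sg1. In EPHB3, DNMT3B and AFF3 the sg1 libraries were nearly level with each other. None of these 5 genes passed the test by edgeR (adjusted p from 0.242 to 0.652). INO80B-WBP1 and AC048338.1 met the rule but share reads with overlapping genes whose loci did not differ by more than 0.2 (log2), so they are uncertain.

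The genes lower in both sg1 libraries had a median difference from LacZ of -1.07 in replicate 1 and -0.99 in replicate 2. EPX, the peroxidase of eosinophil granules, was at 6.34 and 6.07 CPM in LacZ and at 1.8 and 2.16 CPM in sg1 (adjusted p = 0.143 by edgeR). PTGDR2, the prostaglandin D2 receptor of eosinophils and basophils, was at 3.15 and 1.78 CPM in LacZ and at 1.03 and 0.9 CPM in sg1. On the eosinophil list, 3 of 12 measured members were lower at an unadjusted p under 0.05 in edgeR (2.3% of all genes tested) and 2 were higher (1.86%). The lower ones were PRG2, EPX and the surface lectin SIGLEC8 (1.54 and 1.39 CPM in LacZ against 0.554 and 0.608 CPM in sg1). The higher ones were RNASE2, a granule ribonuclease at 223 and 191 CPM in LacZ and 393 and 269 CPM in sg1, and the lipoxygenase ALOX15, at 0.399 and 0.476 CPM in LacZ and 0.633 and 0.99 CPM in sg1. The list therefore did not move as a whole, and its median log2 fold change was 0.15 (median difference from LacZ 0.24 in replicate 1 and 0.06 in replicate 2). In bulk RNA, fewer cells of a type and less RNA per cell cannot be told apart.

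The basophil and mast cell list had the lowest median log2 fold change of the 40 lists, -0.55, against 0.00 over all genes tested, and -0.36 and -0.55 in sg1 replicates 1 and 2. Of its 17 measured members, 1 (HDC) passed the FDR. At an unadjusted p under 0.05 in edgeR, 7 were lower (2.3% of all genes tested) and 0 higher (1.86%). In 11 both sg1 libraries were below both LacZ libraries (17.4% of all genes tested). The mast cell tryptase TPSAB1 was at 4.78 and 4.14 CPM in LacZ and at 1.98 and 2.99 CPM in sg1. MS4A2, a chain of the high-affinity IgE receptor, was at 1.1 and 1.21 CPM in LacZ and at 0.573 and 0.63 CPM in sg1. GATA2, the transcription factor shared by mast cells, basophils and stem cells, was at 26.2 and 28.6 CPM in LacZ and at 21.3 and 18.2 CPM in sg1. The defining genes CPA3, FCER1A, HPGDS and CMA1 were too low to be tested.

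Megakaryocyte genes other than ITGA2B gave a mixed picture. On a list of 17 measured megakaryocyte and platelet genes, 4 were lower (2.3% of all genes tested) and 0 higher (1.86%) at an unadjusted p under 0.05 in edgeR. The median log2 fold change was -0.08. The others of these 4 were the platelet receptor PEAR1 (4.37 and 5.12 CPM in LacZ, 2.39 and 3.38 CPM in sg1), von Willebrand factor VWF (1.65 and 0.496 CPM in LacZ, 0.395 and 0.203 CPM in sg1) and CLEC1B, which was under 0.3 CPM in every library. Defining markers such as PF4, PPBP and GP9 were too low to be tested. TAL1, a transcription factor of the erythroid and megakaryocytic lineages, was at 1.39 and 1.19 CPM in LacZ and at 0.672 and 0.608 CPM in sg1.

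Adhesion and matrix genes made up a further part of the genes lower in both. Of 23 measured integrin genes, ITGA2B fell, and ITGA7 and ITGA3 were lower in both sg1 libraries: ITGA7 was at 15.2 and 12.7 CPM in LacZ and at 6.82 and 7.67 CPM in sg1, and ITGA3 was at 5.94 and 5.63 CPM in LacZ and at 2.99 and 3.11 CPM in sg1. ITGA6 was the 1 integrin with an unadjusted p under 0.05 in the other direction, at 13 and 11 CPM in LacZ and at 15.9 and 16.4 CPM in sg1. Of 55 measured extracellular matrix genes, HSPG2 fell. At an unadjusted p under 0.05 in edgeR, 6 (HSPG2 among them) were lower (2.3% of all genes tested) and 3 higher (1.86%). In 21 both sg1 libraries were below both LacZ libraries (17.4% of all genes tested). SPARC, a secreted collagen-binding protein, was at 76.1 and 74.6 CPM in LacZ and at 47 and 33.7 CPM in sg1. The basement membrane collagen COL4A2 went the other way, at 53 and 51 CPM in LacZ and at 93.8 and 67.2 CPM in sg1. The matrix protease MMP2 was at 24.9 and 25 CPM in LacZ and at 14.8 and 10.8 CPM in sg1.

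Single genes lower in both sg1 libraries included the glutamate receptor subunit GRIK3, at 9.25 and 6.78 CPM in LacZ and at 1.46 and 1.98 CPM in sg1, a log2 fold change of -2.22 (SE 0.40, adjusted p = 0.26 by edgeR). The potassium channel KCNH2 was at 85.1 and 68 CPM in LacZ and at 38.5 and 28.4 CPM in sg1. LIN28B, which blocks maturation of let-7 microRNAs, was at 2.43 and 2.18 CPM in LacZ and at 0.989 and 0.855 CPM in sg1. HOXB9, a homeobox gene of the HOXB cluster, was lower in both but unequally, at 33.5 and 37.1 CPM in LacZ and at 5.58 and 17.5 CPM in sg1. CORO7-PAM16 and ZNF321P met the rule but are a read-through and a pseudogene that share reads with other genes. DESeq2, run on the same counts, called 32 of the 59 genes higher in both, 33 of the 71 lower in both, and 0 of the 353 that moved in replicate 1 only. These classes and that test used the same values, so the overlap is a description.

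The genes that moved in sg1 replicate 1 only had a different content. Among the 58 that were higher were 10 of the 50 chaperone genes with enough counts, beside 0.442% of all genes. HSP90AA1, the stress-inducible cytosolic HSP90, was at 1060 and 1180 CPM in LacZ, at 2200 CPM in sg1 replicate 1 and at 1070 CPM in sg1 replicate 2. HSPH1, a nucleotide exchange factor for HSP70, was at 185 and 182 CPM in LacZ, 350 CPM in replicate 1 and 192 CPM in replicate 2. HSPA8, the constitutive HSP70, was at 1170 and 838 CPM in LacZ, 1860 CPM in replicate 1 and 1170 CPM in replicate 2. In each of these the value of replicate 2 lay at or inside the LacZ range or within 0.2 (log2) of it, and replicate 1 stood alone.

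The same held for HSPA1B, DNAJA1, DNAJB1, HSPE1, BAG3 and AHSA1, whose differences from LacZ were between 0.69 and 1.12 in replicate 1 and between -0.06 and 0.18 in replicate 2. It also held for the endoplasmic reticulum proteins HSPA5 (0.75 and -0.20) and MANF (0.78 and -0.13). Over all 54 measured chaperones, sg1 replicate 1 was above both LacZ libraries in 48 (37% of all genes tested) and sg1 replicate 2 in 13 (35.1% of all genes tested), and the median difference from LacZ was 0.32 in replicate 1 and -0.02 in replicate 2. None of the 54 had an unadjusted p under 0.05 when the sg1 libraries were tested together in edgeR. Other genes higher in replicate 1 only were the tubulin TUBB4B (290 and 265 CPM in LacZ, 530 CPM in replicate 1, 251 CPM in replicate 2), the germline cyclin CCNA1 (5.85 and 4.62 CPM in LacZ, 16.7 and 6.3 CPM in sg1) and the transferrin receptor TFRC (431 and 428 CPM in LacZ, 664 and 442 CPM in sg1).

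Among the 295 genes lower in sg1 replicate 1 only were 9 of the 47 members of the ATF4 and unfolded protein response list with enough counts and 5 of the 20 aminoacyl-tRNA synthetases, beside 2.25% of all genes. ASNS, asparagine synthetase, was at 267 and 248 CPM in LacZ, at 68.1 CPM in sg1 replicate 1 and at 270 CPM in sg1 replicate 2. PHGDH, the first enzyme of serine synthesis, was at 490 and 461 CPM in LacZ, 222 CPM in replicate 1 and 463 CPM in replicate 2. PSAT1, the next enzyme of that pathway, was at 329 and 360 CPM in LacZ, 164 CPM in replicate 1 and 360 CPM in replicate 2. The level of all 3 in replicate 2 was that of LacZ.

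The cystine transporter SLC7A11, the pseudokinase TRIB3, the lipoprotein receptor VLDLR and the tryptophanyl-tRNA synthetase WARS followed the same order, with differences from LacZ of -0.90, -1.22, -1.40 and -1.02 in replicate 1 and of -0.08, -0.34, 0.05 and 0.05 in replicate 2. Over the 49 measured members of the ATF4 list the median difference from LacZ was -0.34 in replicate 1 and -0.07 in replicate 2, and over the 20 tRNA synthetases it was -0.36 and -0.01. On the ATF4 list replicate 1 was below both LacZ libraries in 33 (41.6% of all genes tested) and replicate 2 in 29 (31.6%). In 17 of the ATF4 list both sg1 libraries were below both LacZ libraries (17.4%), and in 2 above both (16.7%). Members of the list could be lower in both libraries: ATF5 was at 172 and 195 CPM in LacZ, 41.7 CPM in replicate 1 and 147 CPM in replicate 2, and DDIT3, the stress transcription factor CHOP, was at 29.8 and 29.4 CPM in LacZ, 16.2 CPM in replicate 1 and 19.7 CPM in replicate 2. The 2 members of this list that were higher in replicate 1 only, HSPA5 and MANF, belong to its endoplasmic reticulum chaperones.

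**Figure D3:**
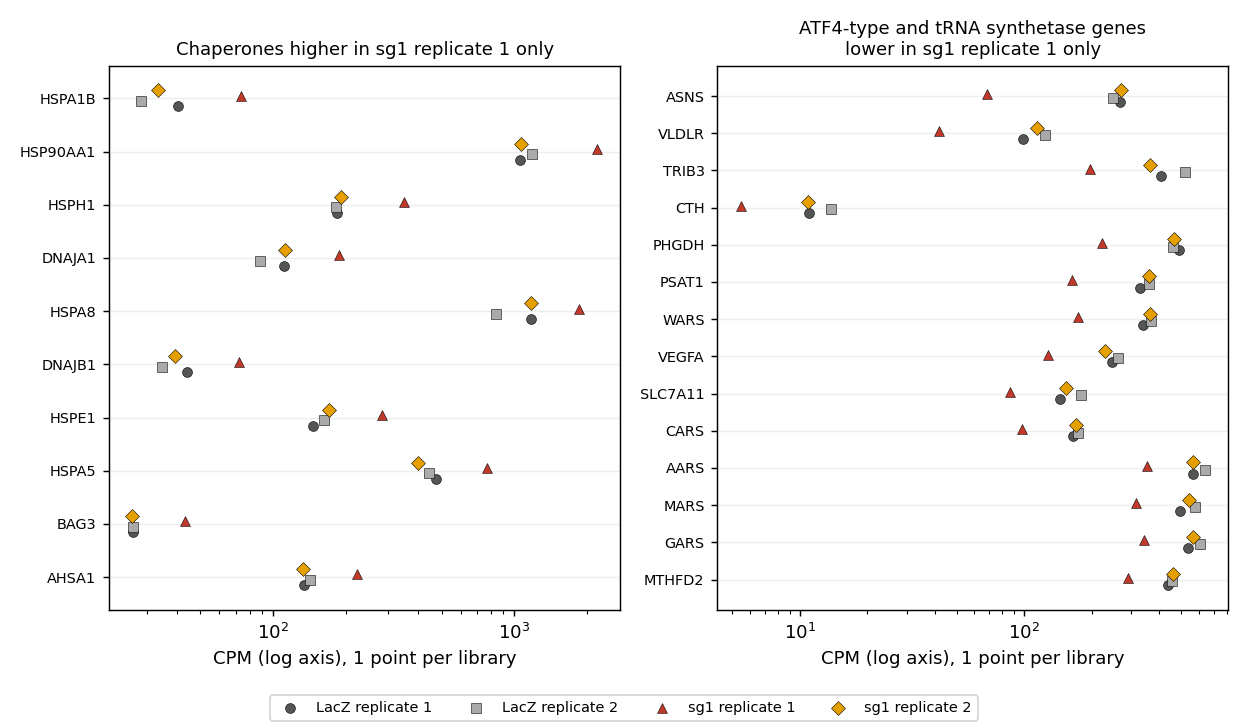
CPM (log axis) in each LacZ and sg1 library for the 10 chaperones higher in sg1 replicate 1 only (left) and the 14 members of the ATF4 and tRNA synthetase lists lower in sg1 replicate 1 only (right). These genes were selected for this pattern. Replicate 1 (triangle) stands apart in every row, while replicate 2 (diamond) lies among the LacZ libraries.

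Promoters of genes in these programs were examined for known response elements. The sequences are from RefSeq (GRCh38.p14), cover the 250 bases before the gene start and were available for 11411 of 18495 tested symbols, or 48 of 54 chaperones and 42 of 49 members of the ATF4 list. The searched elements were chosen after the lists had been seen to differ. The heat shock-type element was 3 alternating triplets of GAA and TTC with any 2 bases between neighbours, searched on both strands, and copies of it can overlap. It was found in 0.298% of all promoters of tested genes and in 4 chaperone promoters (8.33%), those of HSPA6, HSPA8, DNAJB6 and CHORDC1. Of these, HSPA8 was among the genes higher in replicate 1 only. It was the 1 match among the 48 available promoters of that class (2.08%). DNAJB6 was at 66 and 60.8 CPM in LacZ, 87.9 CPM in sg1 replicate 1 and 65.5 CPM in replicate 2, and CHORDC1 was at 73.1 and 73.5 CPM in LacZ, 92.9 CPM in replicate 1 and 73.1 CPM in replicate 2. HSPA6 was under 1 CPM in every library and was lower in replicate 1 than in LacZ. All 4 promoters are shown, 5′ to 3′ on the strand of the gene, with the element in capitals, because they carry this element of the chaperone program.
HSPA6 (chr1:161524290-161524539, plus strand): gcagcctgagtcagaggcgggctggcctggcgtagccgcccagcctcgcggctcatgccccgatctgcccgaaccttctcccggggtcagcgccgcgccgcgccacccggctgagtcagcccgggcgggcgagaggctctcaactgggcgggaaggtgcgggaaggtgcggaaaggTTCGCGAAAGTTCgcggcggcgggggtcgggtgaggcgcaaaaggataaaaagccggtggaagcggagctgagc
HSPA8 (chr11:123062137-123062386, minus strand): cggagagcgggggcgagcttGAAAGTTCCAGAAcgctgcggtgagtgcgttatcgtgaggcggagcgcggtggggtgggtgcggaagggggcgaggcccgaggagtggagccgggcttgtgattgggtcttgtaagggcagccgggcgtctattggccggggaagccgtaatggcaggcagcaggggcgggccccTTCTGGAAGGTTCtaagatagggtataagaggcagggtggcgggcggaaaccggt
DNAJB6 (chr7:157336754-157337003, plus strand): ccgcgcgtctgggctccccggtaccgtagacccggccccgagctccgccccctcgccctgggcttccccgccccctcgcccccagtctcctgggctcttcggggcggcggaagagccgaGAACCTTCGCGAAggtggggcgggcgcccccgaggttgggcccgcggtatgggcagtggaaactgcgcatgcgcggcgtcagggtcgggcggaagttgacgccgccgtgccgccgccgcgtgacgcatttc
CHORDC1 (chr11:90223050-90223299, minus strand): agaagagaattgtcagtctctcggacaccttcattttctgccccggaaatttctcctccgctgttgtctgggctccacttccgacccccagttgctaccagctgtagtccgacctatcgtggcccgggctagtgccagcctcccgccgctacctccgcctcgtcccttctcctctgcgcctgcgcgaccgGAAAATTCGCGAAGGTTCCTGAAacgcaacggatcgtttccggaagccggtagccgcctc

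The amino acid response-type element TGATGNAA, or TTNCATCA on the opposite strand, was found in 1.59% of all promoters of tested genes. It was found in 4 promoters of the ATF4 list (9.52%), those of ATF3, CHAC1, ASNS and HERPUD1. Among genes lower in replicate 1 only it was in 4 of 181 promoters (2.21%), those of ASNS, BCAT1, NLRP12 and SYTL1. BCAT1, the branched-chain amino acid transaminase, was at 374 and 410 CPM in LacZ, 215 CPM in sg1 replicate 1 and 362 CPM in replicate 2. The element of ASNS begins 68 bases before the start and that of BCAT1 48 bases before it. Both promoters are shown with the element in capitals because these genes of amino acid metabolism were lower in replicate 1 only. The promoters of NLRP12 and SYTL1, which were lower in replicate 1 only as well, are not shown. A match is a description and does not show that a factor bound there, and the share among all genes lower in replicate 1 only was near that of all promoters.
ASNS (chr7:97872409-97872658, minus strand): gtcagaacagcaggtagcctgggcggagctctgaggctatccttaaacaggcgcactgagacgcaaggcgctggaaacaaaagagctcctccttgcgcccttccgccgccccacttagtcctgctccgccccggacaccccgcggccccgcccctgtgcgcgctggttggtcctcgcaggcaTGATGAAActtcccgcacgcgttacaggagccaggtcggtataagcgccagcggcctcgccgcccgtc
BCAT1 (chr12:24949102-24949351, minus strand): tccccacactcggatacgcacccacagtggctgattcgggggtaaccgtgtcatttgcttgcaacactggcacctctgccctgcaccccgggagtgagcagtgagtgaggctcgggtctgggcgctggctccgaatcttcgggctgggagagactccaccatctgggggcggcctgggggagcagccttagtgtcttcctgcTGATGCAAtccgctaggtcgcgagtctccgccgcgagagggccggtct

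The GATA-type element AGATAA, or TTATCT on the opposite strand, was looked for because GATA factors act in the megakaryocyte, eosinophil and mast cell lineages. Whether they act on the genes described above was not tested. The element was found in 5.07% of all promoters, in 4 of 41 promoters of genes lower in both sg1 libraries (9.76%) and in 3 of 38 of genes higher in both (7.89%). On the lists themselves it was in 2 of 11 megakaryocyte and platelet promoters (18.2%), in 2 of 12 basophil and mast cell promoters (16.7%) and in 0 of 9 eosinophil promoters. It was in 0 of the 6 promoters available for the called genes.

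The remaining genes lower in replicate 1 only were of many kinds. Protein-coding genes were 66.8% of the 295, against 87.6% of all genes with enough counts, and antisense genes and long intergenic RNAs were 21.0%, against 7.12%. Among genes higher in replicate 1 only these shares were 86.2% and 6.9%. They were 60.9% and 17.4% among genes higher in replicate 2 only, and 78.4% and 13.5% among genes lower in replicate 2 only. The 295 genes were also less abundant, with a median count of 224 against 1340 for all genes with enough counts. The mitochondrial 16S ribosomal RNA MT-RNR2 was at 2800 and 3010 CPM in LacZ, 1450 CPM in replicate 1 and 3380 CPM in replicate 2. The Src family kinase FYN was at 57.1 and 72.3 CPM in LacZ, 21.2 CPM in replicate 1 and 57.7 CPM in replicate 2, and the dendritic cell transcription factor BATF3 was at 11.6 and 11.4 CPM in LacZ, 4.31 and 12.3 CPM in sg1. Library composition also differed. Retained-intron transcripts took 4.65% of the counts in sg1 replicate 1 against 5.37% to 5.55% in the other 3 libraries, and mitochondrially encoded genes 4.25% against 5.09% to 5.94%. In sg5 replicates 1 and 2 the shares were 4.89% and 4.93% for retained introns and 4.46% and 5.46% for mitochondrially encoded genes. The part of library composition in the replicate 1 only differences was not tested. The 21 genes of the mitochondrial chromosome had median differences of -0.238 in replicate 1 and 0.196 in replicate 2. The median differences of the 23 chromosomes with at least 100 genes were between -0.007 and 0.047 in replicate 1 and between -0.018 and 0.032 in replicate 2.

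Replicate 2 stood alone in fewer genes, and these included none of the chaperone, ATF4 or tRNA synthetase members with enough counts. Among the 23 that were higher, the extracellular matrix protein MFAP4 was at 76.8 and 83.3 CPM in LacZ, 73.7 CPM in replicate 1 and 143 CPM in replicate 2. Among the 37 that were lower, AOC1, a diamine oxidase that degrades histamine, was at 6.32 and 5.06 CPM in LacZ, 6.23 CPM in replicate 1 and 2.41 CPM in replicate 2. DEFA1 and DEFA1B, near-identical copies of a defensin gene, moved in opposite directions in replicate 2, and counting can split their reads, so both are uncertain.

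Growth-related lists differed from LacZ by small steps over many genes, in part in both sg1 libraries and in part in replicate 1. Both sg1 libraries lay above both LacZ libraries in 21 of 42 S phase genes, 20 of 53 G2/M genes, 34 of 85 oxidative phosphorylation genes and 42 of 85 cytosolic ribosomal protein genes, against 16.7% of all genes tested. Replicate 2 by itself was above both LacZ libraries in 25 of the S phase genes and 66 of the cytosolic ribosomal protein genes, against 35.1% of all genes tested. The proteasome list had a median difference from LacZ of 0.29 in replicate 1 and 0.00 in replicate 2, and replicate 1 was above replicate 2 in 43 of its 46 measured members (47.6% of all genes tested). For 85 nuclear-encoded oxidative phosphorylation genes the medians were 0.26 and 0.02, and replicate 1 was the higher in 78. For 76 mitochondrial ribosomal proteins they were 0.21 and -0.04, with replicate 1 higher in 71. The S phase list (42 genes, 0.25 and 0.08) and the G2/M list (53 genes, 0.25 and 0.04) had the same order, with replicate 1 higher in 34 and 44. By contrast, the 13 mitochondrially encoded genes had medians of -0.19 and 0.17, and replicate 1 was the lower in all of them. The 85 cytosolic ribosomal proteins had a median of 0.08 in both libraries. For LacZ replicate 1 against the LacZ mean, the median of that list was 0.04. The summed TPM of the list was 186000 and 173000 in LacZ and 181000 and 185000 in sg1, which lay inside the LacZ range. In none of these lists did a gene pass the FDR of 0.1.

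**Figure D4:**
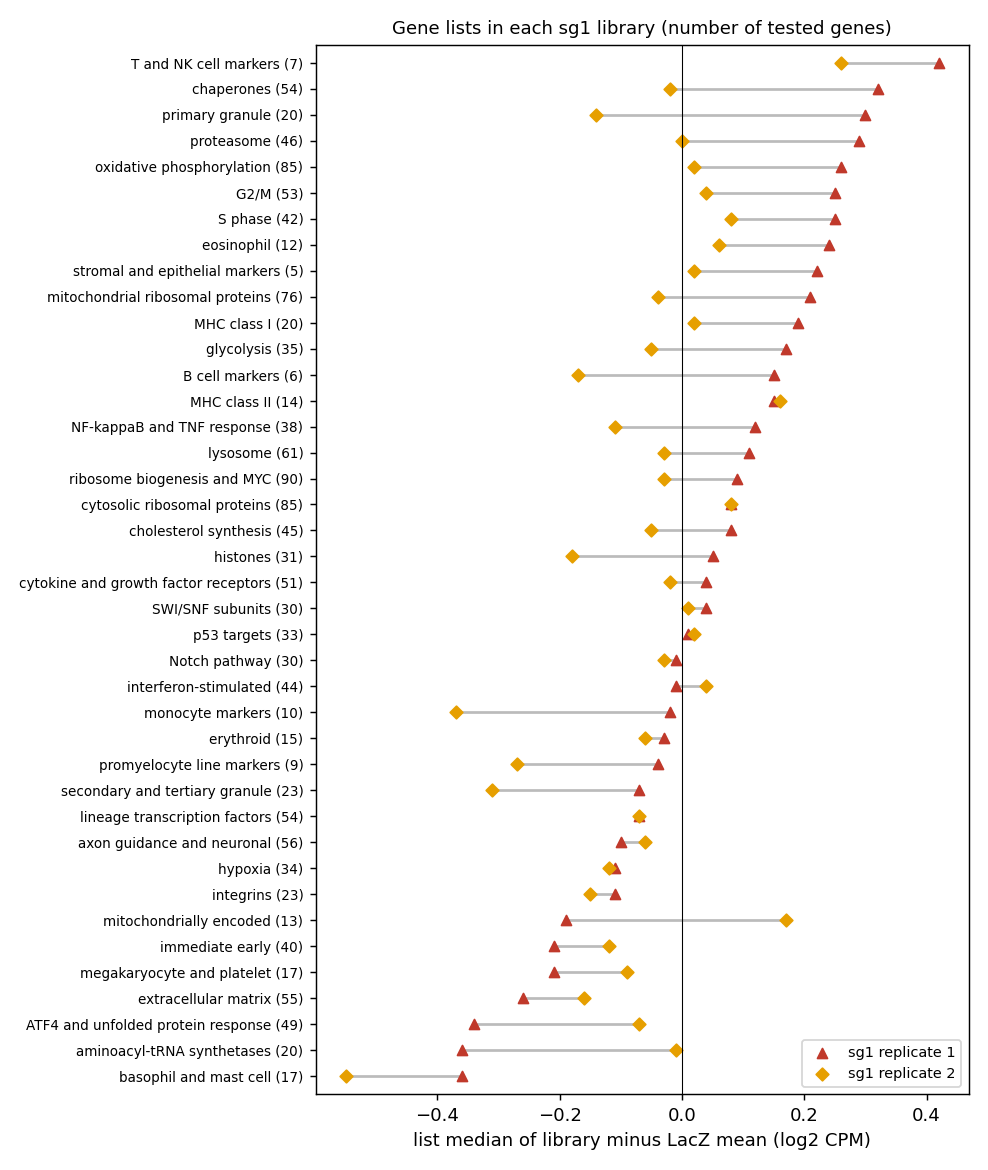
Median difference from the LacZ mean (log2 CPM) over the tested genes of each of 40 lists, for sg1 replicate 1 (triangle) and sg1 replicate 2 (diamond), with the number of tested genes in brackets. Chaperones, the proteasome and the tRNA synthetases are displaced in replicate 1 and near 0 in replicate 2. The ATF4 list is displaced further in replicate 1 (-0.34) than in replicate 2 (-0.07), while basophil and mast cell genes are below LacZ in both.

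Markers of other cell types were low or did not move together. Of 10 monocyte markers measured, S100A9, S100A8 and LYZ were higher at an unadjusted p under 0.05 in edgeR (1.86% of all genes tested) and C1QA was lower (2.3%). The median log2 fold change was -0.19 (median difference from LacZ -0.02 in replicate 1 and -0.37 in replicate 2). The summed TPM of the list was 217 to 243 in LacZ and 561 and 303 in sg1. Among these markers CD14 was under 1 CPM in every library. Of 7 T and NK cell markers measured, PRF1 was higher (64 and 65.8 CPM in LacZ, 87.8 and 83.3 CPM in sg1) and CD4 lower (170 and 142 CPM in LacZ, 115 and 104 CPM in sg1) at that level, while CD3E, CD2 and CD8A were too low to be tested. Of 6 B cell markers, CD79A was higher, at 6.21 and 4.62 CPM in LacZ and at 10.9 and 9.81 CPM in sg1, and MS4A1 was too low to be tested. Of 5 stromal and epithelial markers, 0 were higher or lower at an unadjusted p under 0.05 in edgeR. The immediate early transcription factor KLF4, which promotes monocyte differentiation, was at 7.94 and 7.38 CPM in LacZ and at 16.3 and 11.7 CPM in sg1. KLF4 went against the median of its list. Of 40 measured immediate early genes, 3 were higher (1.86% of all genes tested) and 6 lower (2.3%) at an unadjusted p under 0.05 in edgeR. In 20 both sg1 libraries were below both LacZ libraries (17.4%), and in 3 above both (16.7%). The list had a median difference from LacZ of -0.21 in replicate 1 and -0.12 in replicate 2.

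The replicate 1 only genes were also read in the sg5 samples. Their counts had entered the filter on the mean count but not the sorting into classes, which was itself set with earlier results of these data known. The sg5 samples were compared with each other only, so that no control was shared. Of the 58 genes higher in sg1 replicate 1 only, 50 (86.2%) were higher in sg5 replicate 2 than in sg5 replicate 1, with a median difference of 0.58. Of the 295 that were lower, 31 (10.5%) were higher in sg5 replicate 2, with a median difference of -0.56. Over all genes with enough counts this share was 51.4% and the median difference 0.01. Chaperones were higher in sg5 replicate 2 in 49 of 54 and members of the ATF4 list in 16 of 49. Not every list kept this order. The 13 mitochondrially encoded genes, all lower in sg1 replicate 1 than in sg1 replicate 2, were all higher in sg5 replicate 2 (median difference 0.41). The labels give no batch that joins sg1 replicate 1 with sg5 replicate 2, so the difference is a description without a test.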

How the data were processed

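RNA of 6 samples was measured by paired-end RNA-sequencing (2 each of LacZ, sg1 and sg5). The authors quantified reads per transcript, per the labels with kallisto, and deposited estimated counts and TPM, in which counts are scaled by effective transcript length and by the library total. The human transcript set is not given in the sources used here. The labels name hg19, whereas coordinates here are GRCh38 from GENCODE 29, matched by transcript identifier: 181857 of 196354 transcripts (92.6%) matched, and their estimated counts were summed to 52992 genes and rounded. Reads shared by transcripts are split by the quantifier, so read-through genes and near-identical copies are uncertain.

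Genes were tested with edgeR (version 4.0.16, R 4.3.3): its quasi-likelihood F-test (robust) was fitted to all 6 samples with TMM scaling, group as the only term, and genes kept by filterByExpr (min.count 10), at a Benjamini-Hochberg FDR of 0.1. The biological coefficient of variation was 16.6%. Standard errors were derived from the F statistic. CPM used TMM factors, and log2 CPM a prior count of 2. DESeq2 (version 1.42.0), the tool of the study, was an alternative. Fits were checked on simulated counts with 200 changed genes.

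The comparison, the 40 lists and the rules were chosen with earlier results of these data known. The S phase and G2/M lists are those of Seurat. Genes named were ARID1A, all called genes, the 12 genes in each direction that moved most in both sg1 libraries, the 10 that moved most in replicate 1 only and 5 in replicate 2 only, and from each list the 4 smallest unadjusted p and 2 highest TPM. Not all of these are described, and other members of the classes were named after their values were seen. Plots were made with Python 3.11.15.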

Additional observations from a re-analysis of the deposited data

How the results depend on the processing

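With 2 libraries a group, the number of calls depended on the fit. It was 116 with DESeq2, 345 without the low-count filter, 18 with LacZ and sg1 alone in the fit, 6 with DESeq2 size factors, and between 1 and 17 when 1 library was left out. Of the 7 called genes, all 7 were called by DESeq2. RIPOR2 passed in each of these fits. HDC and HSPG2 were lost whichever library was left out, and ITGA2B and CUX2 passed only when the library left out was sg1 replicate 2. Replicate numbers did not pair the samples: the correlation of their deviations was 0.0719 for LacZ and sg1. A fit that took replicate as a block called 1 gene (RIPOR2), likewise 1 with the block and a length offset, a setting chosen after seeing the data.

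The numbers of genes that moved depended on the rule. In the order higher and lower in both, higher and lower in replicate 1 only, and higher and lower in replicate 2 only, they were 16, 14, 5, 49, 5 and 8 at 2-fold, 175, 257, 603, 1030, 127 and 131 at a smaller minimum fold, 171, 284, 163, 701, 140 and 195 over all tested genes, and 27, 29, 37, 153, 3 and 11 at a mean of at least 200 counts. With 1 LacZ library left out, 130 to 141 genes were higher in both, 136 to 206 lower in both, and 36 to 37 higher in replicate 2 only. The classes need both sg1 libraries, so leaving out an sg1 library was not run for them. Of 57 results followed through these fits, CHORDC1 changed sign, from 0.18 to -0.01 without sg1 replicate 1 and 0.35 without sg1 replicate 2. Not every gene named was followed. Genes of the single-replicate classes can also differ in sign between the sg1 libraries. Differences from LacZ in replicates 1 and 2 were 0.98 and -0.07 for HSP90AA1 and -1.92 and 0.07 for ASNS. Of the 40 list medians, 9 to 13 moved by more than the SD between the sg1 libraries when 1 library was left out, and 11 with library-size scaling. Library-size scaling moved the median log2 fold change of all genes from 0.002 to -0.039. That step is not small beside the smaller list medians. The median went from 0.080 to 0.038 for cytosolic ribosomal proteins and from 0.082 to 0.039 for mitochondrial ribosomal proteins. It went from 0.174 to 0.131 for the S phase list, and changed sign for ribosome biogenesis and MYC (0.037 to -0.006). The depth of 46131178 to 54490092 counts limits mainly genes under 1 CPM.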
